A study of Mus musculus with 8 samples.

Results

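The spliceosome and splicing factor genes were taken as the array probes whose gene name begins with Sf3a or Sf3b, Snrp, Lsm, Prpf or Sfrs followed by the number or letters of the family member. The rule found 120 probes for 62 gene names among the array's 41174 probes for 27962 names. Of these, 117 probes passed the filter on dim signals, and they still covered all 62 gene names. The other 3 probes, 1 each for Sfrs15, Prpf4b and Prpf39, were well above background on no array and were not tested.

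RNA came from whole testicular cells of male mice, 4 samples from Vrk1 mutant mice (VRK1-/-) and 4 from wild-type mice (VRK1+/+), each on 1 single-colour Agilent array. Vrk1 encodes a serine/threonine kinase of the cell nucleus. The labels used here state no age, strain, litter or type of mutant allele and do not tie the biological replicates to animals, so a p-value measures the spread between these samples. All mutant arrays lay on 1 slide and all wild-type arrays on another, so genotype and slide cannot be told apart in any comparison. In mixed tissue of this kind, fewer cells of a type and less RNA per cell cannot be told apart either.

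The spliceosome removes introns from pre-mRNA. Its core is built from small nuclear ribonucleoproteins (snRNPs), each a small RNA (U1, U2, U4, U5 or U6) with a ring of Sm or LSm proteins and with proteins of its own. U1 recognises the start of the intron and U2, with the SF3a and SF3b complexes, the branch point. The U4/U6 and U5 particles then join, Prp factors remodel the assembly, and SR proteins, which carry runs of arginine and serine, help to choose which splice sites are used. Germ cells of the testis are known for extensive alternative splicing.

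The probes below carry the results that follow. They are 60-base oligonucleotides, given 5′ to 3′ as the array files list them, with positions in the mouse build mm7. The first probe, for Sf3a2, lies at chr10:80592457-80592516 on the plus strand and belonged to the member with the smallest adjusted p.
Sf3a2 A_51_P389785: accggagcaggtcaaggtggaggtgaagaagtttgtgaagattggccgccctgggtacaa
The pair for Lsm2 is shown because both probes fell and because they share a run of 50 bases, given in capitals, so that they are not independent measurements. A_52_P434039 lies at chr17:33079712-33079771, and A_52_P434038 covers chr17:33079722-33082202 and so runs across an exon junction.
Lsm2 A_52_P434039: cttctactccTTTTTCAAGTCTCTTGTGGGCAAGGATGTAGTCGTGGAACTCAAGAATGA
Lsm2 A_52_P434038: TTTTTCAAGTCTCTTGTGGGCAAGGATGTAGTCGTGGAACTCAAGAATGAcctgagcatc
The Prpf18 junction probe (chr2:4550854-4552955, minus strand) and a Sfrs1 probe (chr11:88119053-88119112, plus strand) fell while other probes of their genes did not pass the test.
Prpf18 A_52_P62270: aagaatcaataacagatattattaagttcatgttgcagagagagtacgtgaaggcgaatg
Sfrs1 A_52_P525674: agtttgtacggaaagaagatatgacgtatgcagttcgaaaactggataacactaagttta
The Sfrs2ip probe (chr15:96425697-96425908, minus strand, also across a junction) had the largest rise among the tested members.
Sfrs2ip A_52_P371918: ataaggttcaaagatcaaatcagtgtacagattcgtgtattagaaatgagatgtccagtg
A pair of neighbouring Sfrs8 probes, on the plus strand and 20 bases apart, gave different results. For A_52_P583728 (chr5:128809147-128809206) bases 24 to 53 are shown, with AATAAA in capitals, and for A_51_P327963 (chr5:128809067-128809126) bases 1 to 30.
Sfrs8 A_52_P583728: aatgtattatcaAATAAAatgggaagaaca
Sfrs8 A_51_P327963: gtcagtcagtggcttttgtaaatttttggt
For Sf3b4 and Prpf38a, whose probes were called in opposite directions, the first 30 bases of each are shown. The Sf3b4 probes lie at chr3:96047161-96047220 (A_52_P253665) and chr3:96051249-96051308 (A_51_P261150) on the plus strand, and the Prpf38a probes at chr4:107940461-107940520 (A_52_P137145) and chr4:107941450-107941509 (A_51_P462047) on the minus strand.
Sf3b4 A_52_P253665: ccttcagcttcaattcccagtttctggaat
Sf3b4 A_51_P261150: tttccactggggattttcttcatttttatt
Prpf38a A_52_P137145: ctttgtaactctactcctaggagaaattat
Prpf38a A_51_P462047: tattacagaggtgctaagttttgtatctct

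Levels are given as log2 of the processed signal over the 75th percentile of its array, and a difference is the mutant mean minus the wild-type mean on that scale. Vrk1 was lower in the mutant by 2.26 and 2.06 on its 2 probes. The 75th percentile of the signal was 928 to 1124 on mutant arrays and 680 to 790 on wild-type arrays, and 83.3% to 86.5% of features on mutant arrays and 73.2% to 77.5% on wild-type arrays were well above background. Epididymal marker genes stood far apart in mutant replicates 1 and 4, where the median level of their 4 tested probes was 1.86 and 0.66, against -2.66 and -3.83 in mutant replicates 2 and 3 and -4.50 to -3.76 in wild type. The counts of called members, the class medians and the probe pairs are therefore also given without those 2 arrays. Wild type replicate 4 lay far from the other wild-type arrays for 13 splicing factor probes, and without it 4 members were higher and 21 lower. Of the 9 late spermatocyte probes tested, 6 fell in the mutant and none rose (median difference -0.62). Of the 11 Sertoli cell probes 10 rose and none fell (median 1.03). Of all tested probes, 10.8% fell and 21.2% rose, and the share that fell was 28.1% at levels of 2 to 4 and 37.5% above 4. The late spermatocyte probes had a median level of 4.00. With quantile normalisation 1 late spermatocyte probe fell and 9 Sertoli probes rose. Without mutant replicates 1 and 4, a fit of 2 mutant against 4 wild-type arrays, no late spermatocyte probe fell and 2 Sertoli probes rose. At an unadjusted limma p under 0.05 in that fit, 4 late spermatocyte probes fell and 10 Sertoli probes rose. The median differences there were -0.40 and 0.86. The part of these cell types in the results below was not tested.

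Splicing factor probes were mostly a little lower in the mutant testis, and few of them passed the test. With limma over all 33718 tested probes and a Benjamini-Hochberg adjusted p under 0.05, 19 member probes fell and 5 rose. That is 16.2% lower against 10.8% of all tested probes, and 4.27% higher against 21.2% of all tested probes. The other 93 were not called, 12 of them with an unadjusted p under 0.05. Differences of called probes were modest, from -1.11 to -0.41 and from 0.53 to 1.09, and only Sfrs8 and Sfrs2ip passed 1 log2 unit. The genotypes did not overlap for 29 member probes (24.8%, against 35.3% of all tested probes), 25 of them lower and 4 higher. By gene name, 14 genes had only lower calls, 3 only higher calls, 2 (Sf3b4 and Prpf38a) both, and 43 none. Of the 38 genes with several tested probes, only Lsm2 had all of its probes called lower, and its 2 probes share 50 bases.

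**Figure D1:**
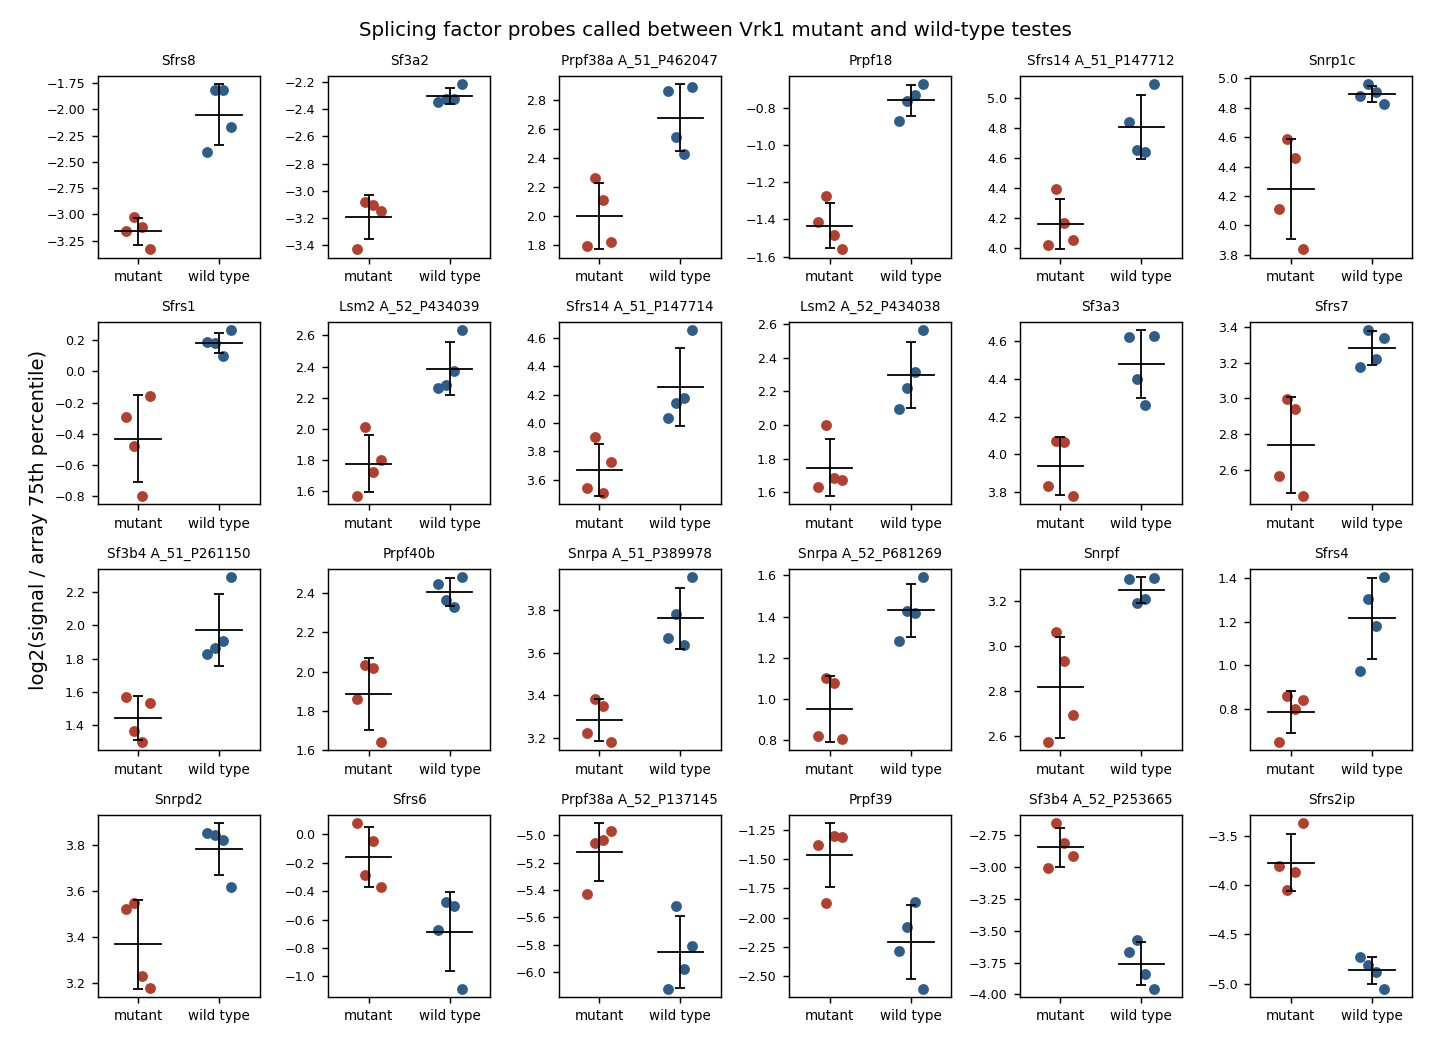
Level on each array, as log2 of signal over the array's 75th percentile, of the 24 called member probes, ordered by difference, with mutant arrays on the left of each panel and wild-type arrays on the right. Points are replicates 1 to 4 from left to right, the line is the mean and the bar its SD; the genotypes overlap only in the Prpf39 panel.

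Across all 117 tested probes the median difference was -0.16, against 0.05 for all tested probes, and 82 of them (70.1%, against 46.7% of all tested probes) were below 0. The members were bright as a group, with a median level of 0.90 against -1.73 for all tested probes, and on these arrays the difference depended on brightness. Among all probes with a mean level under 0, 5.46% were lower and 25.7% higher, and the lower share was 16.5% at levels of 0 to 2, 28.1% at 2 to 4 and 37.5% above 4. In the same bands the members had 4 lower and 5 higher calls of 44, then 3, 9 and 3 lower calls of 35, 31 and 7 with none higher. Of all tested probes in the bands above 0, 14.9%, 8.39% and 2.65% were higher. At levels of 0 to 2 the lower share of the members was 8.57%, against 16.5% of all tested probes. In each of the other bands the lower share of the members was the larger one. The median differences of the members by band were 0.01, -0.19, -0.35 and -0.54, against 0.22, -0.21, -0.36 and -0.44 for all tested probes. Above a level of 0 the medians of the members thus lay close to those of all tested probes in the same band. Below it the median of the members was lower, but that band is wide. Within it the median of all tested probes fell from 0.56 at levels of -6 to -5.5 to -0.09 at -0.5 to 0. That band alone therefore does not show whether members lay below probes of like brightness. All 5 higher calls came from probes with a mean level below 0, and 15 of the 19 lower calls from probes above 0.

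**Figure D2:**
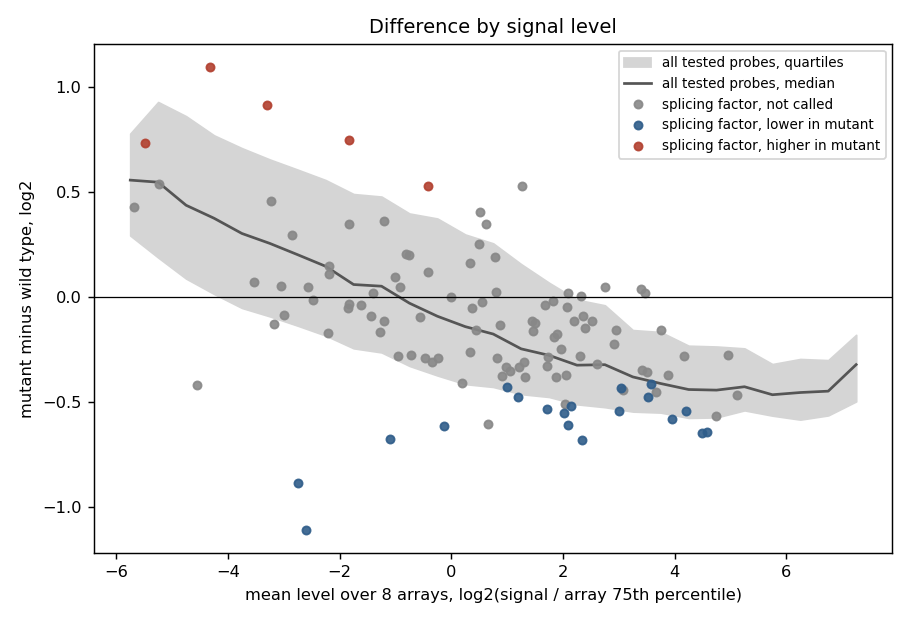
Mutant minus wild-type difference (log2) against mean level over the 8 arrays for the 117 tested member probes (points, coloured by call), over the median and quartiles of all tested probes in steps of level (line and grey band). Most members lie within the band, whose median falls as the level rises, while Sfrs8 at -1.11 and Sf3a2 at -0.89 lie far below it and Sfrs2ip at 1.09 above it.

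The counts depended on the normalisation and on the arrays used. Quantile normalisation and cyclic loess each gave 3 higher and 5 lower calls of 117. Of all 33718 tested probes, 4354 were higher and 3589 lower with quantile normalisation, and 4523 and 3006 with cyclic loess. In both, a smaller share of members than of all tested probes thus fell. The called probes of Sf3a2, Sfrs1, Sfrs8, Prpf18, Prpf39 and Sfrs2ip and the higher Sf3b4 probe were the 7 of 24 that kept their call in both. By contrast, scaling to the median of each array gave 4 higher and 42 lower, against 4491 and 8768 of all tested probes. Without mutant replicates 1 and 4, 2 members were higher and 3 lower, against 3.91% higher and 0.652% lower of all tested probes, and the median difference of the members was -0.03 against 0.08 for all probes. The 3 lower calls left were Sf3a2, Sfrs1 and Sfrs8 and the 2 higher ones Sf3b4 and Sfrs2ip. That fit had 2 mutant arrays against 4 wild-type arrays, and no other pair was left out. Fewer arrays and the choice of these 2 therefore cannot be told apart. Leaving out wild type replicate 3 alone gave 10 lower calls, mutant replicate 1 alone 9 and mutant replicate 4 alone 10. The calls of these Sf3a2, Sfrs1 and Sfrs8 probes were also the only ones that held under every alternative that tested the probe. For Sfrs1 and Sfrs8 the alternative with 1 probe per gene name used another probe, which was not called. Without the same 2 mutant arrays the median differences of the LSm (0.04), SR (0.04) and Sm (0.03) probes lay above 0, while those of all 6 classes of splicing factor lay below 0 in every other setting run. With normexp background correction the class medians were -0.074 to 0.076 from the median of all tested probes.

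The Sm proteins form the ring that U1, U2, U4 and U5 RNA share. Of their 13 tested probes 2 fell (15.4%, against 10.8% of all tested probes) and none rose (against 21.2%), with a median difference of -0.14. The lower share of all tested probes was 5.46% under a level of 0 and 37.5% above 4. Snrpd2 had levels of 3.52, 3.55, 3.23 and 3.18 on the mutant arrays, against 3.85, 3.84, 3.82 and 3.62 on the wild-type arrays. Every mutant value was below every wild-type value, and the difference was -0.41 ± 0.14 (SE; limma adjusted p = 0.0493, n = 4 each). Snrpf fell by 0.43 ± 0.14 on its probe A_51_P255613 (limma adjusted p = 0.0441), with levels of 2.57, 3.06, 2.93 and 2.69 in mutant and 3.30, 3.19, 3.21 and 3.30 in wild type. The other Snrpf probe had a difference of -0.32 and an adjusted p of 0.115 in the same limma fit, also with no overlap. Both calls were near the threshold: the Snrpd2 call was lost in 6 and the Snrpf call in 7 of the 8 fits that left out 1 array. Snrpd1 gave 0.43 ± 0.19 on A_52_P214661 (SE; limma adjusted p = 0.112), which no wild-type array showed as well above background. Its other probe gave -0.02, and neither was called. The 3 Snrpd3 probes gave -0.15, -0.04 and -0.04 and none was called. Snrpn, the imprinted counterpart of Snrpb that is best known from neurons, gave -0.13 and -0.01 on its 2 probes, neither of them called.

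Among proteins specific to the U1 and U2 particles, 3 of 10 tested probes fell (30%, against 10.8% of all tested probes) and none rose (against 21.2%). The median difference was -0.32, the lowest of the 6 classes. Snrp1c (now Snrpc), the U1 protein that stabilises contact with the 5′ splice site, had levels of 4.11, 4.59, 4.46 and 3.84 in mutant and 4.88, 4.96, 4.90 and 4.83 in wild type. The wild-type arrays agreed closely and the mutant arrays spread over a wider range below them, with mutant replicates 1 and 4 lowest. The difference was -0.64 ± 0.18 (SE; limma adjusted p = 0.0226), and without those 2 arrays it was -0.37 with an adjusted p of 0.14. Snrpa, the U1 protein that binds a loop of U1 RNA, fell by 0.48 on both A_51_P389978 and A_52_P681269 (limma adjusted p = 0.0229 and 0.0275). On A_51_P389978 it stood at 3.22, 3.38, 3.35 and 3.18 in mutant and at 3.67, 3.78, 3.64 and 3.96 in wild type, with no overlap. Both calls were lost in 4 of the 8 fits without 1 array, and with quantile normalisation the differences were -0.20 and -0.38 and not called. Its other 2 probes had differences of -0.28 and -0.29 and overlapping genotypes. The U2 proteins Snrpa1 and Snrpb2 were not called, with a difference of -0.33 for the single Snrpa1 probe and of -0.36 and -0.31 for the Snrpb2 probes. Snrp70, the U1 70K protein, was among the brightest members and gave -0.28 on A_51_P356144, which was not called. Its other probe, A_52_P501767, gave 0.53 ± 0.46 and was not called either (SE; limma adjusted p = 0.384).

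SF3a and SF3b are the U2 subcomplexes that anchor U2 at the branch point. Of their 14 tested probes 3 fell (21.4%) and 1 rose (7.14%), against 10.8% and 21.2% of all tested probes. The median was -0.18. Sf3a2 had levels of -3.43, -3.08, -3.10 and -3.15 on mutant arrays, against -2.35, -2.33, -2.32 and -2.22 on wild-type arrays. The genotypes were separated by more than the whole range within either one, and the difference was -0.89 ± 0.13 (SE), a 1.85-fold lower signal (limma adjusted p = 0.00234). Sf3a3, from the same complex, fell by 0.54 ± 0.14 (adjusted p = 0.021 in the limma fit), with 3.83, 4.07, 4.06 and 3.78 in mutant and 4.63, 4.40, 4.26 and 4.63 in wild type. With quantile normalisation the Sf3a3 difference was -0.21 (limma adjusted p = 0.306) and with cyclic loess -0.19, and the call was also lost without mutant replicate 1 or 4. The third SF3a subunit, Sf3a1, gave -0.28 and -0.35 and was not called on either probe. In the SF3b complex, the probes of Sf3b1, which contacts the branch region, of Sf3b2, of Sf3b3 and of Sf3b5 were not called, with differences between -0.37 and 0.35.

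Sf3b4, a further SF3b subunit, gave opposite calls on its 2 probes. A_51_P261150 stood at 1.57, 1.36, 1.30 and 1.53 in mutant and 1.82, 1.87, 1.90 and 2.29 in wild type, a fall of 0.53 ± 0.15 (SE; limma adjusted p = 0.0252). A_52_P253665, 4028 bases upstream in the genome, stood at -3.00, -2.65, -2.81 and -2.92 in mutant and at -3.67, -3.58, -3.84 and -3.95 in wild type, a rise of 0.91 ± 0.14 (adjusted p = 0.00297 in the limma fit). Neither pair of groups overlapped. The lower probe carries a RefSeq mRNA accession of the NM type in the array files, and the higher one a RefSeq model accession of the XM type. With normexp background correction the rise of the second probe was 0.23 and was not called.

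**Figure D3:**
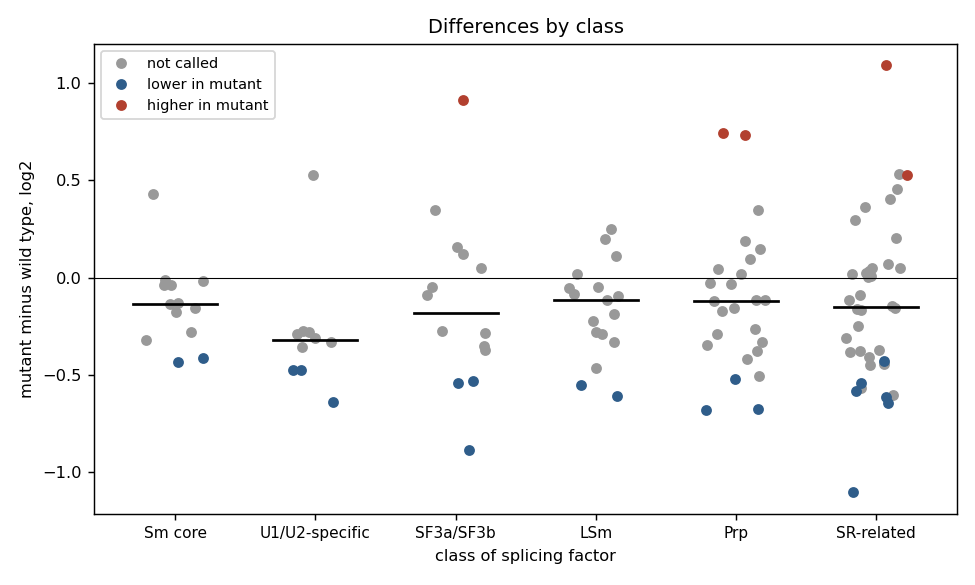
Mutant minus wild-type difference (log2) of each tested member probe, by class of splicing factor; the bar is the class median and colours mark the calls. Medians run from -0.32 for the U1 and U2 proteins to -0.12 for the LSm and Prp classes, and the spread within a class is wider than that between classes.

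LSm proteins form rings like those of the Sm proteins. Lsm2 to Lsm8 bind U6 RNA, a ring with Lsm1 acts in cytoplasmic mRNA decay, Lsm10 and Lsm11 belong to the U7 particle of histone mRNA processing, and Lsm14a and Lsm14b are components of P-bodies. Of 17 tested probes 2 fell (11.8%), both for Lsm2, and none rose, against 10.8% and 21.2% of all tested probes. The median was -0.12. Lsm2 had levels of 1.57, 2.01, 1.72 and 1.80 on A_52_P434039 in mutant, against 2.26, 2.29, 2.37 and 2.63 in wild type. The overlapping probe A_52_P434038 stood at 1.63, 2.00, 1.69 and 1.67 in mutant and at 2.09, 2.22, 2.32 and 2.56 in wild type. The differences were -0.61 ± 0.15 and -0.55 ± 0.15 (SE; limma adjusted p = 0.015 and 0.023), with no overlap between genotypes on either probe. Neither was called with quantile normalisation (limma adjusted p = 0.053 and 0.076), with cyclic loess or without mutant replicates 1 and 4. In the 8 fits without 1 array the A_52_P434039 call was kept throughout and the A_52_P434038 call was lost in 4. Lsm3, Lsm4, Lsm5, Lsm6, Lsm7 and Lsm8 had no called probe, with differences from -0.47 for Lsm4 to 0.25 for Lsm5. Lsm1, Lsm10 and Lsm11, outside the U6 ring, gave -0.05, -0.22 and -0.05 and were not called. Lsm14a was 0.20 higher in the mutant mean and was not called (adjusted p = 0.705 by limma). Its replicate 1 was far above the others in both genotypes, at -0.04 against -0.91 to -0.86 in mutant and at 0.38 against -1.35 to -1.19 in wild type.

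Prp factors act at several steps. Of their 25 tested probes 3 fell (12%) and 2 rose (8%), against 10.8% and 21.2% of all tested probes. The median was -0.12. Prpf18, which acts at the second step of splicing, fell on the junction probe A_52_P62270, with -1.42, -1.27, -1.48 and -1.56 in mutant against -0.87, -0.76, -0.73 and -0.67 in wild type. Its difference of -0.68 ± 0.13 (SE; limma adjusted p = 0.00567) was larger than the spread within either genotype. The other Prpf18 probes, A_51_P148597 and A_52_P206881, overlap each other on chromosome 2 and gave -0.29 and -0.03, neither called. Prpf40b, a relative of a yeast U1 protein, stood at 1.86, 2.03, 2.02 and 1.64 in mutant and 2.45, 2.37, 2.33 and 2.49 in wild type, a fall of 0.52 ± 0.14 (adjusted p = 0.0194 in the limma fit). With normexp correction that difference was 1.03 and was not called, and 1 of the 4 wild-type arrays did not show the probe well above background. Prpf39, another relative of a yeast U1 protein, rose on A_51_P250358, with -1.38, -1.87, -1.30 and -1.31 in mutant and -2.28, -2.08, -1.87 and -2.61 in wild type. Mutant replicate 2 met the highest wild-type value there, and the difference was 0.75 ± 0.20 (SE; limma adjusted p = 0.0205). The other tested Prpf39 probe gave 0.05, with replicate 4 the lowest array of both genotypes.

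Prpf38a, a tri-snRNP factor needed for activation of the spliceosome in yeast, was called both ways. A_51_P462047 stood at 1.80, 2.26, 2.11 and 1.82 in mutant and at 2.86, 2.54, 2.42 and 2.89 in wild type, a fall of 0.68 ± 0.17 (SE; limma adjusted p = 0.0163). A_52_P137145, 929 bases away on the same strand, did not reach the well-above-background mark on the wild-type arrays. Its measured levels were -5.43, -5.06, -5.03 and -4.97 in mutant (mean -5.12) and -6.12, -5.51, -5.98 and -5.81 in wild type (mean -5.85). On these values the signal was 1.66-fold higher in the mutant (adjusted p = 0.0134 in the limma fit), with wild type replicate 1 at the floor set for all arrays. With normexp correction this probe's difference was -0.45 and was not called. The U4/U6 and U5 proteins Prpf3, Prpf4, Prpf6, Prpf8 and Prpf31 had no called probe. Prpf3 came nearest, with 1.52, 2.03, 2.08 and 1.51 in mutant and 2.50, 2.21, 2.15 and 2.30 in wild type, no overlap, and a difference of -0.51 (adjusted p = 0.0517 in the limma fit). Prpf8, the large scaffold protein at the centre of the spliceosome, gave -0.33 and -0.12. Prpf19, the ubiquitin ligase of its own spliceosomal complex, gave 0.35 and was not called.

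Of the 38 tested probes for SR and SR-related proteins 6 fell (15.8%) and 2 rose (5.26%), against 10.8% and 21.2% of all tested probes. The median was -0.15. The array's Sfrs names are older names, most of which are now Srsf. Sfrs1 (now Srsf1), the founding SR protein, fell on A_52_P525674, with -0.29, -0.48, -0.80 and -0.16 in mutant and 0.19, 0.18, 0.10 and 0.26 in wild type. Its mutant arrays were spread over a wider range than its wild-type arrays, all below them, and the difference was -0.61 ± 0.16 (SE; limma adjusted p = 0.0185). The other Sfrs1 probe, A_51_P485899, gave 0.05 and was not called. Sfrs14 (now Sugp2), a protein with the G-patch domain of RNA-binding factors, fell on 2 of its 3 probes. A_51_P147712 stood at 4.02, 4.39, 4.17 and 4.05 in mutant and 4.84, 4.65, 4.64 and 5.10 in wild type, a difference of -0.65 ± 0.15 (adjusted p = 0.0139 in the limma fit). A_51_P147714 gave -0.58 and the third probe -0.45, which was not called. Sfrs4 (now Srsf4) and Sfrs7 (now Srsf7) each fell on 1 probe, by 0.43 ± 0.14 and 0.54 ± 0.16 (SE; limma adjusted p = 0.0402 and 0.0286). The Sfrs4 call was lost in 7 of the 8 fits without 1 array, and the Sfrs7 call in 4.

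Sfrs8 (now Sfswap), which takes part in its own splicing and that of other transcripts, had the largest fall of all members, on 1 of its 4 probes. A_52_P583728 stood at -3.16, -3.03, -3.12 and -3.33 in mutant and -2.41, -1.82, -1.81 and -2.17 in wild type. All mutant values lay below all wild-type values, and the difference was -1.11 ± 0.17 (SE), a 2.15-fold lower signal (limma adjusted p = 0.00262). The neighbouring probe A_51_P327963 had 2.23, 2.40, 2.48 and 2.15 in mutant against 2.29, 2.77, 2.69 and 2.11 in wild type, overlapping and -0.15 apart. The remaining Sfrs8 probes gave -0.17 and 0.07. AATAAA, the usual letters of a poly(A) signal, occurs in A_52_P583728 and not in A_51_P327963. It was found on the probe strand in 9 of the 117 tested member probes (7.69%), against 4.22% of all 33718 tested probes; counting either strand, the shares were 11.1% and 7.74%. Of the 9, 3 were lower and none higher. Of all 1423 tested probes with these letters, 222 were lower (15.6%) and 279 higher.

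Sfrs2ip (now Scaf11), a protein first found as a partner of the SR protein Sfrs2, rose on A_52_P371918, with -3.80, -4.05, -3.87 and -3.37 in mutant and -4.73, -4.81, -4.88 and -5.05 in wild type. The genotypes were far apart, with a difference of 1.09 ± 0.17 (SE; limma adjusted p = 0.00278). With normexp correction it was 0.03 and not called. The other Sfrs2ip probe gave 0.41 and was not called. Sfrs6 (now Srsf6) rose by 0.53 ± 0.18 on A_52_P543824 (limma adjusted p = 0.0467), with 0.08, -0.29, -0.05 and -0.37 in mutant and -0.67, -0.48, -0.50 and -1.09 in wild type. That call was lost in all 8 fits without 1 array. Among the SR proteins with no call, the 4 Sfrs2 (now Srsf2) probes gave -0.44, -0.41, 0.01 and 0.02, and the 2 probes of Sfrs10 (now Tra2b, a regulator of testis-specific exons) gave -0.38 and -0.60. Sfrs3, Sfrs5, Sfrs9, Sfrs11, Sfrs12, Sfrs15 and Sfrs16 had no called probe either.

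Where a gene had several tested probes, each was also compared with the brightest one. Each pair thus sets a dimmer probe against a brighter one, and on these arrays the difference fell with brightness. Its median over all tested probes was 0.55 at levels of -5.5 to -5 and -0.32 at 2 to 2.5, the levels of the 2 Prpf38a probes. A called pair therefore does not by itself show a genotype difference that varies along the transcript. The comparison gave 55 member pairs, of which 5 (9.09%) differed by limma at an adjusted p under 0.05, against 15.1% of the 10369 pairs on the whole array. In 3 of the 5 the difference of the dimmer probe lay above that of the brightest one, and in 2 below. The Sfrs8 pair differed most surely, by -0.96 ± 0.13 (SE; adjusted p = 0.00395 over all pairs with limma). Sf3b4 and Prpf38a followed with 1.44 and 1.41 (limma adjusted p = 0.00511 and 0.00554), then Prpf18 with -0.65 (limma adjusted p = 0.013) and Sfrs6 with 0.69 (limma adjusted p = 0.035). With normexp correction the Sf3b4 pair differed by 0.63 and the Prpf38a pair by 0.11, and neither was called. The Sfrs8 and Prpf18 pairs kept their calls in the normexp, quantile and loess settings and in each fit without 1 array. Without mutant replicates 1 and 4 only the Sf3b4 pair was called.

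**Figure D4:**
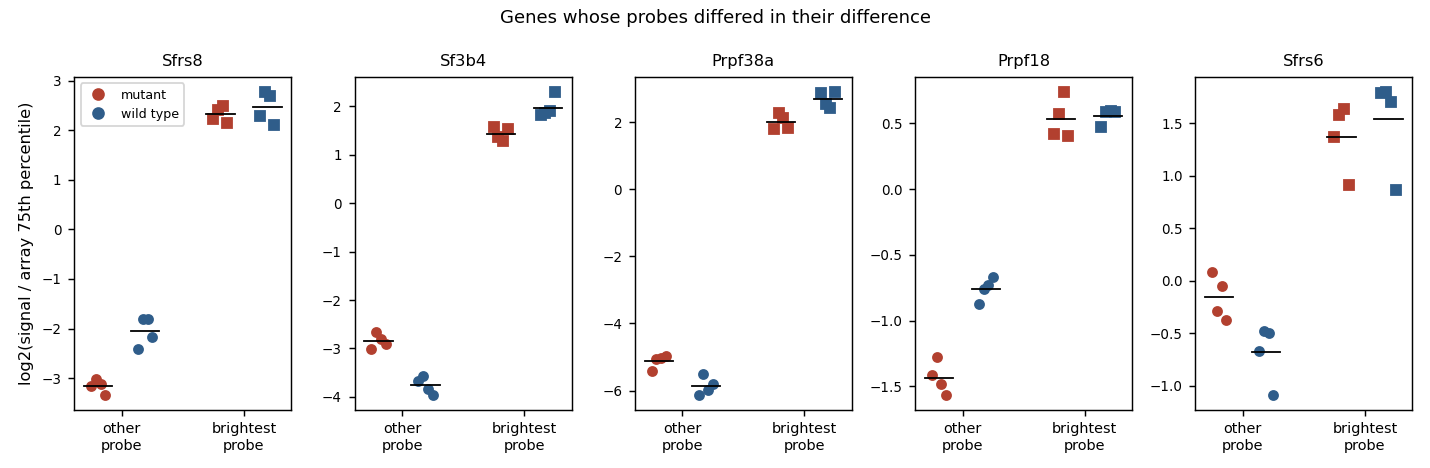
Level on each array (log2 of signal over the array's 75th percentile) for the 5 genes with a called probe pair; circles are the probe named in the text, squares the brightest probe of the gene, with mutant arrays on the left and wild-type arrays on the right of each and bars at the means. In Sf3b4 and Prpf38a the probes move in opposite directions, and in Sfrs8 and Prpf18 the circles are lower in the mutant while the squares overlap.

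Other splicing genes were read from 4 lists. Of 116 tested probes for other spliceosome components 15 fell (12.9%, against 10.8% of all tested probes) and 1 rose (0.86%, against 21.2%), with a median of -0.24. Dhx16, an RNA helicase of spliceosome activation, fell by 0.65 and 0.61 on its 2 called probes (limma adjusted p = 0.00996 and 0.0145), with 3.31, 3.69, 3.54 and 3.36 in mutant and 3.97, 4.06, 4.18 and 4.28 in wild type on the first. Of 31 probes for snRNP assembly factors 8 fell (25.8%) and 3 rose (9.68%), against 10.8% and 21.2% of all tested probes, with a median of -0.30. With quantile normalisation, and also with cyclic loess, 1 of the 31 fell and 1 rose. With normexp 2 fell and none rose. Among the assembly factors, Ddx20, the Gemin3 subunit of the SMN complex that loads Sm rings, fell by 0.64 (limma adjusted p = 0.00954). Ncoa6ip (now Tgs1), which trimethylates the cap of snRNAs, rose by 0.60 (limma adjusted p = 0.0163).

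On the hnRNP and other splicing regulator list 25 of 101 tested probes were higher (24.8%) and 8 lower (7.92%), shares near the 21.2% and 10.8% of all tested probes, with a median of 0.01. Khdrbs2, an RNA-binding regulator of the STAR family, rose on 2 probes by 1.09 and 0.95 (limma adjusted p = 0.00332 and 0.0047), and with normexp the first of these, A_52_P537272, stood at -0.13 and was not called. Hnrpul1 (now Hnrnpul1) was called both ways, with a fall of 0.71 on A_51_P156363. No wild-type array showed A_52_P394875 as well above background, and wild type replicates 1 and 3 lay at the floor. On these values it was 2.27-fold higher in the mutant, with means of -4.85 in mutant and -6.04 in wild type (limma adjusted p = 0.000595). With normexp the difference of that dim probe was -0.34 and not called. Of the 17 tested probes for SR protein kinases, which phosphorylate SR proteins, 4 rose (23.5%) and 1 fell (5.88%), again near those shares. Clk1 rose by 0.52 and Srpk2 by 0.56 on A_52_P303629 (limma adjusted p = 0.0217 and 0.0227). The other Clk1 probe gave 0.39 and was not called. The Srpk2 probe was dim (mean level -3.59) and its difference was -0.068 with normexp. A further Srpk2 probe rose by 0.78, and its 3 bright probes gave -0.14, -0.13 and -0.26 and were not called. With quantile normalisation the splicing regulator list had 16 higher and 5 lower calls, and the other spliceosome components 3 higher and 1 lower. Without mutant replicates 1 and 4, limma called 3 regulator probes higher and no other probe of the 4 lists. At an unadjusted p under 0.05 that fit had 3 higher and 9 lower other spliceosome probes, 3 and 5 assembly factor probes, 25 and 7 regulator probes and 2 and 2 kinase probes.

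**Figure D5:**
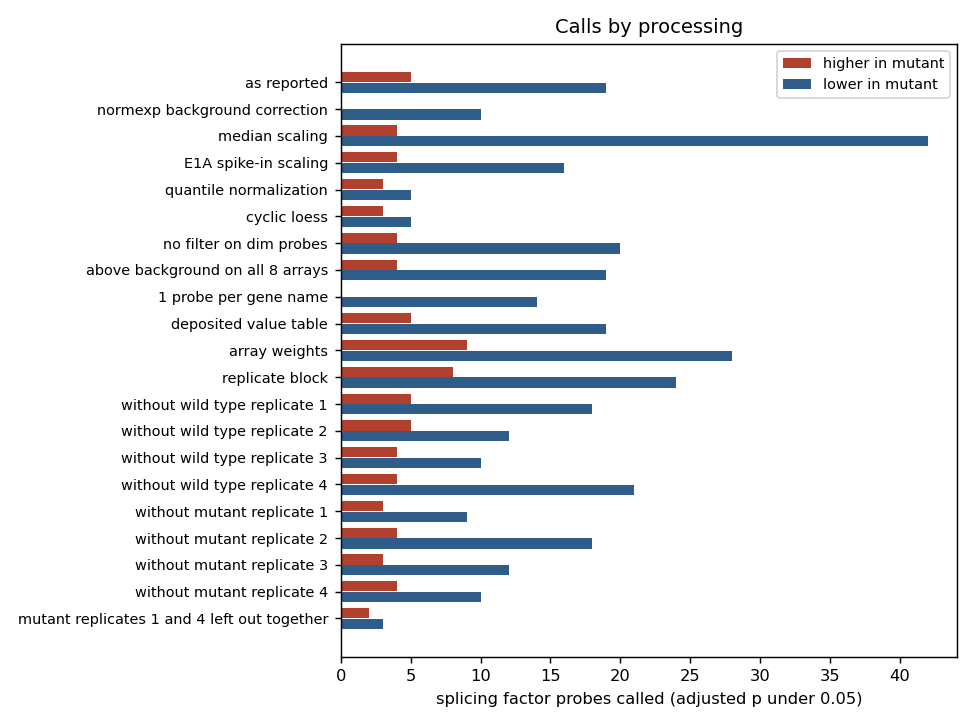
Number of member probes called higher or lower in the mutant (adjusted p under 0.05) under the reported processing and each alternative. Lower calls run from 3 without mutant replicates 1 and 4 to 42 with median scaling, and higher calls from 0 to 9.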

How the data were processed

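RNA levels were measured on 8 single-colour arrays, grouped by genotype from the submitters' labels. The deposited intensity values are spot signals from Agilent Feature Extraction 9.5.3.1, per the submitters' processing notes; per the file headers they are background-subtracted and not scaled between arrays. The deposited value table holds the same intensity values on a linear scale, without centring.

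Each signal was scaled to the 75th percentile of its array's non-control features; values under a floor of 0.0144 were set to it before log2 was taken. Flagged outlier spots were left out and the repeated spots of 245 probes averaged. A probe was tested if 4 or more of the 8 arrays showed it well above background and each genotype had 3 or more values, which left 33718 of 41174. Differences were fitted with limma 3.58.1 in R 4.3.3 (genotype only, two-sided, Benjamini-Hochberg, threshold 0.05) and the procedure was tested on simulated data. No feature was saturated; the number of arrays limits the precision. The design had no replicate block, since the labels do not say that equal numbers are pairs.

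The splicing factor probes, their classes and the gene lists were chosen with earlier results of these data known. Named members were the 3 probes with the smallest p in each class, the largest called changes without overlap, genes called both ways, the brightest probes, and, in each list, the 2 probes with the smallest p; other members named in the text were chosen after their values were seen. Of the 120 member probes, 88 were matched to a current symbol by RefSeq accession and 32 by name. Sequences and mm7 positions were copied from the array files, without an annotation of that build. Nova1 and Nova2, on the regulator list, were not analysed here, and some results are not reported here. Alternatives were another background correction (normexp with an offset of 50), scaling, filter, probe choice, array weights, a replicate block and arrays left out. The comparison of probes within a gene, with its alternatives, was added after the data were seen.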

Additional observations from a re-analysis of the deposited data

Results flagged for a closer look

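An array far from the other 3 of its genotype, by Dixon's test, was found in 23 of 250 groups (9.20%), where chance gives about 1 in 20. Of these, 13 were in wild type replicate 4, which was the highest array for 5 probes and the lowest for 8. It was high for Lsm11 (-1.34, the others -1.99 to -1.97), Prpf8 A_51_P168662 (1.87, the others 0.83 to 1.00), Sf3b2 (4.42, the others 3.90 to 3.99), Sf3b4 A_51_P261150 (2.29, the others 1.82 to 1.90) and Snrpb (2.38, the others 1.78 to 1.87). It was low for Lsm6 A_51_P152802 (-3.31) and A_52_P655743 (1.74), Prpf39 A_52_P107234 (-2.33, the others -0.52 to -0.41), Sf3b5 A_51_P256035 (-3.35) and Sfrs6 A_51_P185121 (0.86, the others 1.70 to 1.80). It was also low for Snrpd2 (3.62, the others 3.82 to 3.85), Snrpd3 A_52_P523179 (3.06, the others 3.99 to 4.18) and Snrpg (3.74, the others 4.48 to 4.51).

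Replicate 1 stood apart in both genotypes for Lsm14a, at -0.0379 in mutant and 0.38 in wild type. Mutant replicate 1 was low for Sfrs7 A_51_P466673 (-1.96, the others -1.36 to -1.31) and for Vrk1 A_52_P555672 (-3.73). Mutant replicate 2 was high for Lsm2 A_52_P434038 (2.00) and low for Prpf39 A_51_P250358 (-1.87), and mutant replicate 4 was low for Prpf4b A_52_P643359 (-1.84). Wild type replicate 1 was low for Lsm6 A_52_P422755 (-2.34), Prpf18 A_52_P206881 (0.47) and Sf3b3 A_51_P113747 (-0.0491, the others 0.34 to 0.36).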

How the results depend on the processing

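The counts of called splicing factor probes, 5 higher and 19 lower, changed with the background correction, the normalisation and the arrays used. They were 0 higher and 10 lower with normexp background correction, and 4 higher and 42 lower with median scaling. Quantile normalisation and cyclic loess each gave 3 higher and 5 lower. With 1 probe per gene name there were 0 higher and 14 lower of 62, and with array weights 9 higher and 28 lower. Without mutant replicates 1 and 4 there were 2 higher and 3 lower. Leaving out 1 array at a time gave 3 to 5 higher and 9 to 21 lower, with the fewest lower calls without mutant replicate 1 (9), wild type replicate 3 (10) and mutant replicate 4 (10), and 12 each without wild type replicate 2 and mutant replicate 3. The cause of these shifts was not tested. The median member difference of -0.16 was -0.38 with median scaling, and its distance from the median of all probes, -0.21, was 0.040 with normexp. The median of all tested probes itself was 0.05 as reported, -0.23 with normexp, -0.17 with median scaling and -0.08 with quantile normalisation. The whole array had 7160 higher and 3655 lower calls (66.2% higher), against 2092 and 3097 (40.3%) with normexp, 4491 and 8768 (33.9%) with median scaling, 4354 and 3589 (54.8%) with quantile normalisation and 9606 and 7600 (55.8%) with array weights.

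Of the 24 called members, 22 kept their sign under every alternative, 11 kept their call in each fit without 1 array, and 3 kept it under every alternative that tested the probe. With normexp the sign turned for Prpf38a A_52_P137145 (-0.45) and Prpf40b (1.03), and among other splicing genes for Hnrpul1 A_52_P394875 (-0.34), Khdrbs2 A_52_P537272 (-0.13) and Srpk2 A_52_P303629 (-0.0684). Apart from Prpf40b these probes were dim, and the normexp offset of 50 largely sets the difference of such probes. Their turned signs therefore do not decide whether they rose. Of the 5 member probe pairs, 3 were called with normexp, 1 without mutant replicates 1 and 4, and 4 to 5 without 1 array.

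Deviations from the group means correlated between same-numbered arrays at 0.28, 0.24, 0.09 and 0.61. The labels do not say that equal numbers are pairs, and the main fit left any spread shared by number within its error. Of the 8 arrays 7 correlated best with their own number, the exception being wild type replicate 3. With the replicate block, 8 members were higher and 24 lower, and 8 probe pairs were called.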

Other observations

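Arrays of the same replicate number often moved together for the splicing factor probes. Replicate 4 was the lowest array of both genotypes for 37 of the 117 tested probes and the highest of both for 19, against 11 where it was lowest in one genotype and highest in the other. Replicate 1 was lowest in both for 22 probes and highest in both for 3. Snrp70 A_52_P501767 is an example, with 0.73 in replicate 4 against 1.66 to 1.98 elsewhere in mutant, and -0.44 against 1.25 to 1.62 in wild type. Prpf39 A_52_P107234 stood at -1.67 in replicate 4 against -0.88 to -0.42 in mutant, and at -2.33 against -0.52 to -0.41 in wild type, and Snrpd3 A_52_P523179 at 3.07 against 3.56 to 4.11 in mutant, and at 3.06 against 3.99 to 4.18 in wild type. The other Snrp70 probe, A_51_P356144, was also lowest in replicate 4, at 4.37 in mutant and 4.69 in wild type. The replicate number was also the array's place on its slide, and the part of that place was not tested.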
